A study of Mus musculus with 24 samples.

Results

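The protocadherin genes were followed in RNA from the dentate gyrus of mice, where new neurons keep being made in adults. All 71 of the 23306 genes in the expression table whose symbol begins with Pcdh were taken, so membership rests on names. The members and the gene lists were nonetheless chosen with earlier results of these data known. The 71 members are 15 genes of the Pcdha cluster, 22 of the Pcdhb cluster, 22 of the Pcdhg cluster and 12 genes outside the clusters. All mice were female C57BL6 of the genotype Tg(Nestin-cre/ERT2)::RPL22HA/WT, in which tamoxifen switches on a Cre recombinase driven by Nestin sequences, and recombined cells and their descendants then make the ribosomal protein RPL22 with a haemagglutinin (HA) tag. Every mouse received tamoxifen at 160 mg/kg daily for 5 days at 9 to 11 weeks of age, the sedentary mice included. The wheel in the cage was free for running mice and glued for sedentary ones, for a treatment time of 11, 18 or 27 days. Each combination of activity and time has 2 libraries of RNA precipitated with the tagged ribosomes (IP), labelled as immature neurons, and 2 of dentate gyrus tissue (input), which makes 24 libraries in 12 groups. The labels state neither how many mice a library holds nor that replicate libraries are from different mice, so p-values reflect the spread among libraries alone, and that spread may be technical.

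Protocadherins are cadherin-like proteins of the cell surface. In the Pcdha and Pcdhg clusters each gene has its own first exon and promoter and shares its last exons with the rest of the cluster, whereas the Pcdhb genes stand alone. A neuron uses a few of the clustered genes, chosen largely at random, and like proteins recognise each other on touching membranes, which lets a neuron tell its own branches from those of others. The C-type genes at the end of the Pcdha and Pcdhg clusters (Pcdhac1, Pcdhac2, Pcdhgc3, Pcdhgc4, Pcdhgc5) are not chosen in this random way and serve particular tasks, such as the survival of neurons for Pcdhgc4 and the spacing of axons for Pcdhac2. The genes outside the clusters act in cell adhesion, cell sorting and synapses, and several of them can bind the WAVE complex that builds actin networks.

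In the GENCODE M21 annotation of GRCm38 (mm10), 68 of the 71 symbols matched a single gene. The 3 clusters lie side by side on chromosome 18, Pcdha at 36930184 to 37187661, Pcdhb at 37264938 to 37524479 and Pcdhg at 37661793 to 37841873. All 22 Pcdhb genes have 1 exon in their longest annotated transcript. A median of 53.5% of the longest transcript of a Pcdha gene, and of 44.8% for Pcdhg, is shared with other genes of the cluster. Reads from those shared exons cannot be placed on 1 gene. RSEM, named in the submitters' processing notes, divides such reads between genes by estimate, so values of single Pcdha and Pcdhg genes are uncertain in a way that the cluster sums are not. Of the 12 genes outside the clusters, Pcdh1 (38185914 to 38212053) and Pcdh12 lie on the same chromosome, Pcdh8, Pcdh9, Pcdh17 and Pcdh20 on chromosome 14, Pcdh10 and Pcdh18 on chromosome 3, Pcdh11x and Pcdh19 on the X, Pcdh7 on chromosome 5 and Pcdh15 on chromosome 10.

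The values are TPM (a share of each library's transcripts, corrected for transcript length), which keep no read depth, so the depth of the libraries is unknown. The marker lists were set against the label of the IP. All 8 immature neuron markers, all 7 markers of intermediate progenitors and neuroblasts and all 10 neural stem cell markers were higher in the IP, and all 8 interneuron and all 7 microglia markers and 6 of 7 markers of mature granule neurons were lower. Over all tested genes 41.4% were higher and 28.5% lower. The summed level of 8 astrocyte markers was 1870 to 3711 TPM in the IP, against 1280 to 1920 TPM in the input. Calls of the single astrocyte genes are not counted here, so the sum may rest on a few of them. The sum of 7 oligodendrocyte markers was 898 to 1379.9 TPM in the IP, against 476 to 762 TPM for the input, without overlap, although 1 of these genes was higher and 5 were lower. For markers of CA pyramidal neurons and mossy cells the sum was 377 to 1012 TPM in the IP, against 1031 to 1445 TPM in the input. For oligodendrocyte precursors it was 35.9 to 58.0 TPM in the IP, against 78.7 to 114 TPM in the input. The part of these other cell types in the differences between IP and input was not tested. Of all marker genes, Spink8 was listed at 0 in 2 libraries and Folr1 in 1. The median olfactory receptor gene (1122 genes that have no known use in this tissue) stood at 0 to 0.870 TPM in the IP but at 3.50 to 7.56 TPM in the 4 input libraries of day 18. The running IP library a of day 11 stood apart with 1035 TPM over all protocadherin genes, against 1365 to 1436 TPM in the other 3 IP libraries of that day. The running input library a of day 11 was high instead. Its Pcdhg sum was 476 TPM, against 360.0 to 397 TPM in the other 3 input libraries of that day, and its Pcdhgc3 level 81.8 TPM, against 49.6 to 57.2 TPM.

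Levels were first summed by cluster and set side by side between the fractions. The summed Pcdhg level was 631 ± 105 TPM in the IP, against 405 ± 31.9 TPM in the input (mean ± SD over 12 libraries per fraction). The Pcdha genes summed to 135 ± 29.3 and 107 ± 8.21 TPM. At day 11 the Pcdha sum was 100.3 ± 16.5 TPM in the IP, against 98.5 ± 6.66 TPM for the input (SD, n = 4 each), and the ranges of 76.9 to 115 and 89.6 to 105 TPM overlapped. The Pcdhb genes summed to 249.8 ± 41.0 and 202 ± 37.0 TPM over all days. The 12 genes outside the clusters summed to 605 ± 107 TPM in the IP, against 673 ± 63.8 TPM in the input, the opposite order. The ranges of the Pcdhg sum overlapped only through the running IP library a of day 11, at 379 TPM, since the other IP libraries lay at 549.5 to 757 TPM and the input libraries at 360.0 to 476 TPM. In bulk RNA, fewer cells of a type and less RNA per cell cannot be told apart.

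**Figure D1:**
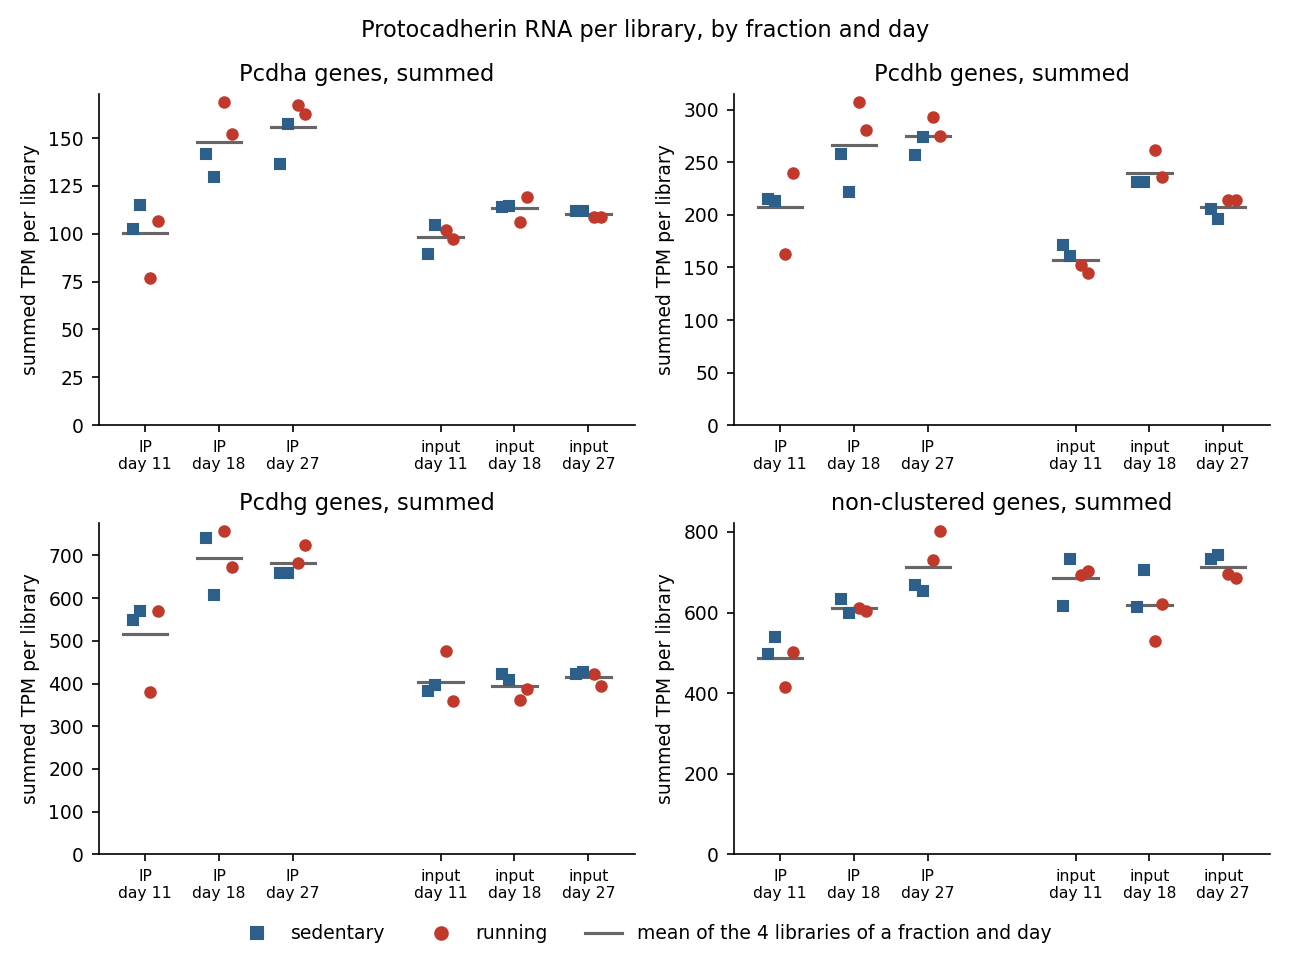
Summed TPM of the Pcdha, Pcdhb, Pcdhg and non-clustered genes (4 panels, vertical axes from 0) in each library, by fraction and day; squares are sedentary, circles running, and grey lines the mean of 4 libraries. The Pcdhg sum of the IP lies above that of the input at days 18 and 27, and the non-clustered sum of the IP is lowest at day 11, at 415 to 539 TPM.

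Members were compared between fractions with limma on log2(TPM + 1), the scale of every log2 difference given here, which understates changes of low genes. A gene was called at an adjusted p under 0.05 (limma, Benjamini-Hochberg over all tested genes), and a mean TPM of 1 or more was required for testing. That left 70 of the 71 members, since Pcdha4 stood at 0 to 1.08 TPM. The expression data also hold a symbol Pcdha4-g, at a mean of 12.3 TPM. How reads were divided between these symbols is not known, so the low value does not show that Pcdha4 is silent. In the IP, 44 of the 70 were higher and 10 lower than in the input, against 41.4% and 28.5% of all 19507 tested genes. The median difference was 0.31 for the members and 0.12 for all genes. By class, 19 of 22 Pcdhg genes were higher and 1 lower, 10 of 14 Pcdha genes were higher and 2 lower, and 13 of 22 Pcdhb genes were higher and 1 lower. Of the 12 genes outside the clusters 2 were higher and 6 lower. Scaling the libraries by the median of ratios in place of TPM moved the median of all genes from 0.12 to -0.12, and the counts then were 22 higher and 15 lower. Under that scaling the Pcdhg genes still counted 15 higher and 2 lower, the Pcdha genes 4 and 2, the Pcdhb genes 3 and 3, and the non-clustered genes 0 and 8.

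**Figure D2:**
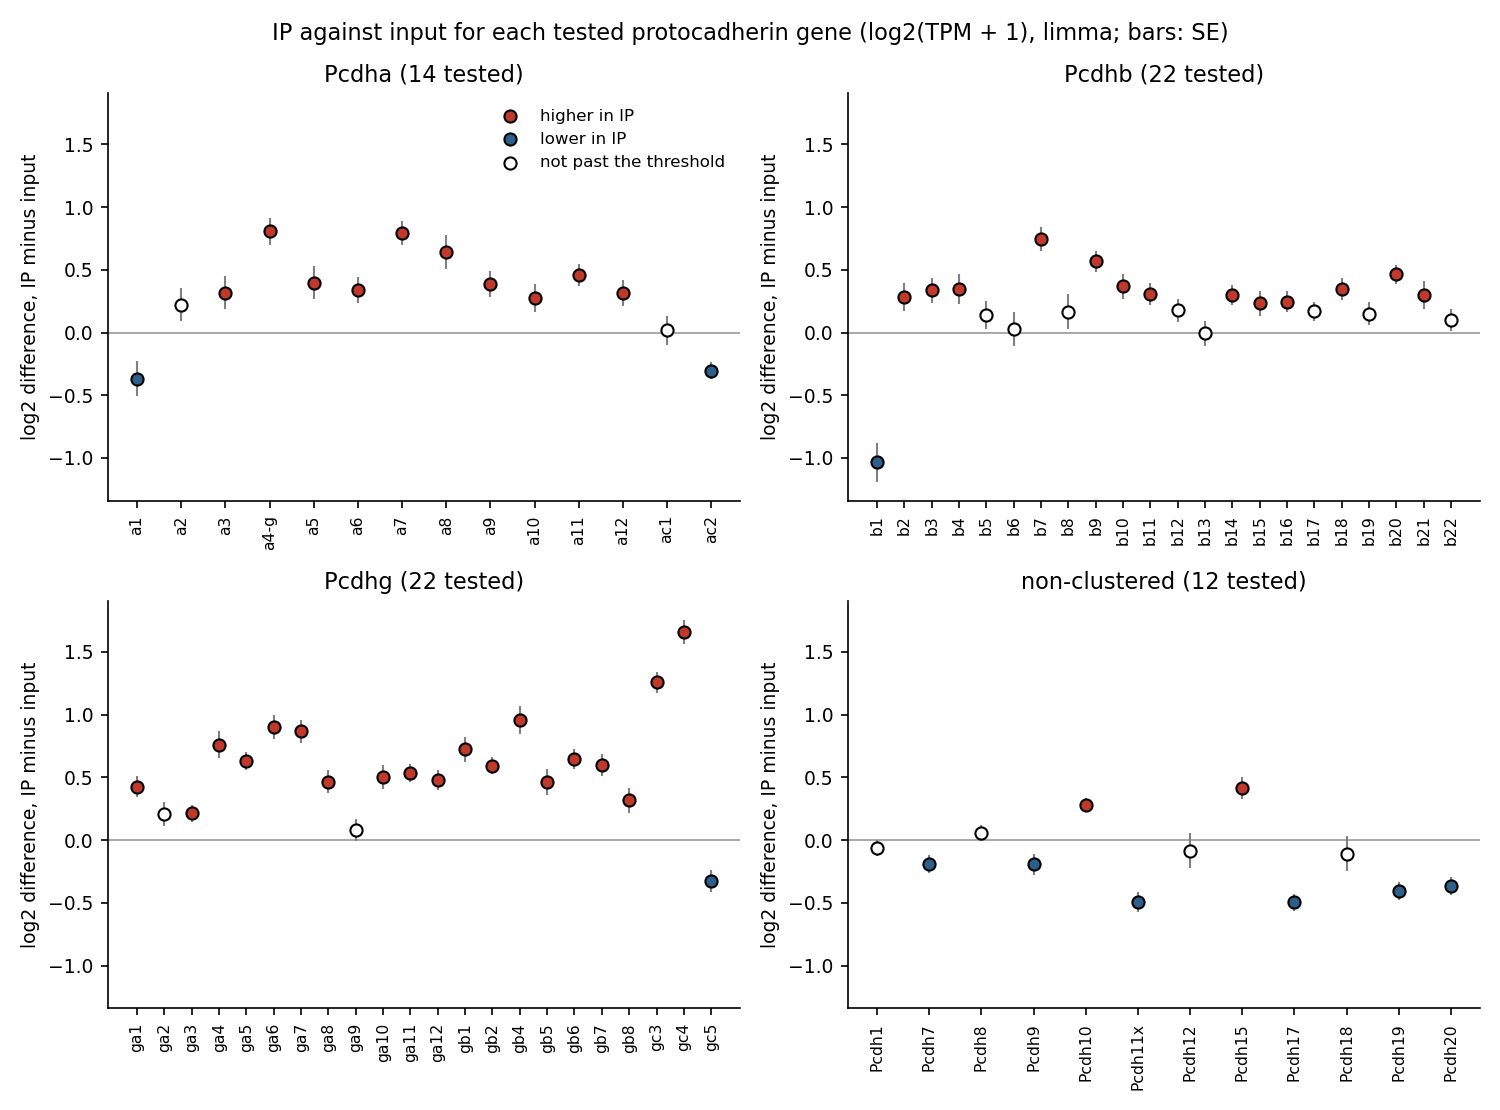
Difference between IP and input for each tested gene (vertical axis, log2(TPM + 1); bars are the standard error of limma), in 4 panels by class; red points are higher and blue points lower at an adjusted p under 0.05, white points did not pass. Pcdhgc4 and Pcdhgc3 stand highest at 1.66 and 1.26, and Pcdhgc5 beside them is lower in the IP, at -0.33.

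The 5 C-type genes went separate ways. Pcdhgc3, the most abundant clustered gene, had a lowest, median and highest level of 89.99, 137 and 184 TPM in the IP, against 45.1, 55.2 and 81.8 TPM in the input. Pcdhgc4, the C-type gene known for its role in neuron survival, ran from 14.5 through 25.9 to 41.6 TPM in the IP, against 6.03 through 7.51 to 9.52 TPM in the input. These were the only 2 of the 70 tested members for which every IP library lay above every input library, a pattern that 10.1% of all tested genes showed (2.08% in the other direction, which no member showed). The log2 differences were 1.66 ± 0.10 (SE) for Pcdhgc4 and 1.26 ± 0.09 for Pcdhgc3 (adjusted p = 1.85e-11 and 1.67e-10, limma). Pcdhgc5 was lower in the IP (log2 difference -0.33 ± 0.09, adjusted p = 0.00209, limma), with 39.99, 55.6 and 102 TPM in the IP, against 60.6, 71.1 and 109.7 TPM in the input.

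Pcdhac2 was also lower (log2 difference -0.30 ± 0.07, adjusted p = 0.000531, limma), at 15.5, 20.4 and 32.1 TPM in the IP, against 23.2, 26.4 and 31.3 TPM in the input, so the ranges overlapped. It was the most abundant Pcdha gene and made up 16.8 ± 2.42% of the Pcdha sum in the IP and 25.6 ± 3.87% in the input (mean ± SD, n = 12). Pcdhac1 did not pass the test (log2 difference 0.02 ± 0.11), with medians of 5.38 and 5.71 TPM. Pcdhgc3 made up 21.8 ± 2.97% of the Pcdhg sum in the IP and 13.8 ± 1.26% in the input.

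Among the other Pcdhg genes, Pcdhga6 was higher by 0.90 ± 0.10 and Pcdhga7 by 0.87 ± 0.09 (adjusted p = 7.09e-08 and 8.78e-08, limma). Pcdhga6 had 14.0, 26.8 and 34.3 TPM in the IP, against 11.0, 13.4 and 18.1 TPM in the input. Its ranges overlapped through the running IP library a of day 11, which held the 14.0 TPM. Pcdhga11, the most abundant Pcdhg gene outside the C-types, was higher by 0.53 ± 0.07. All 12 Pcdhga genes had positive differences, and 10 of them passed, as did all 7 Pcdhgb genes.

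In the Pcdha cluster, Pcdha4-g (a symbol of the table that the annotation does not hold) was higher by 0.81 ± 0.11, Pcdha7 by 0.79 ± 0.10, Pcdha8 by 0.64 ± 0.14 and Pcdha11 by 0.46 ± 0.09. Pcdha7 had 5.95, 11.4 and 14.4 TPM in the IP, against 3.83, 5.83 and 7.09 TPM in the input. Pcdha5 was higher by 0.40 ± 0.13 but did not pass under scaling by the median of ratios (0.14, adjusted p = 0.366, limma) or without day 18 (0.16, adjusted p = 0.375). The first gene of the cluster, Pcdha1, and the last, Pcdhac2, were the 2 that were lower. Pcdha1 is named outside the rule for named genes, after its value was seen, at -0.37. It did not pass without both letter a IP libraries of day 11 (-0.31, adjusted p = 0.0682, limma). Its input level was 2.56 to 4.35 TPM at day 18, where olfactory receptor genes were also high, and 1.28 to 2.81 TPM at the other days. The part of that signal in the Pcdha1 difference was not tested.

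Pcdhb7, Pcdhb9 and Pcdhb20 had the lowest p among the Pcdhb genes that were higher, at 0.75 ± 0.10, 0.57 ± 0.08 and 0.46 ± 0.08. Pcdhb9, the most abundant Pcdhb gene, had 13.6, 22.8 and 33.4 TPM in the IP, against 11.4, 15.5 and 18.5 TPM in the input. Pcdhb17, second in abundance, did not pass (0.17 ± 0.08, adjusted p = 0.0640, limma). Pcdhb1 was the 1 member of the cluster that was lower, at -1.03 ± 0.16, with 0.380, 0.900 and 1.96 TPM in the IP, against 0.570, 2.83 and 11.5 TPM in the input. The 4 highest input libraries for Pcdhb1 were those of day 18, in which olfactory receptor genes were also high. The part of this signal in the Pcdhb1 difference was not tested.

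Outside the clusters, 6 genes were lower in the IP. Pcdh17, which organises synapses, had 36.3, 49.3 and 70 TPM in the IP, against 54.6, 71.1 and 79.0 TPM in the input (log2 scale: -0.50 ± 0.07, adjusted p = 2.71e-06, limma). Pcdh19, an X-linked gene whose mutation causes epilepsy in girls, had 19.7, 31.7 and 41.9 TPM in the IP, against 30.6, 41.0 and 50.9 TPM in the input (-0.40 ± 0.07). Pcdh20 had 79.3, 105 and 172 TPM in the IP, against 90.4, 151 and 176 TPM in the input (-0.37 ± 0.07). The ranges overlapped for all 3 genes. Pcdh11x was lower at -0.49 ± 0.08, Pcdh7 at -0.19 ± 0.07 and Pcdh9 at -0.19 ± 0.08. Pcdh9 is a marginal case, with an adjusted p of 0.0443 (limma) and a call that was lost in 15 of the 24 fits that each left out 1 library. Without both letter a IP libraries of day 11 neither Pcdh7 (-0.14, adjusted p = 0.0799, limma) nor Pcdh9 (-0.13, adjusted p = 0.185) passed.

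Pcdh10 and Pcdh15 were the 2 that were higher. Pcdh10, which takes part in activity-dependent removal of synapses, had 41.9, 55.2 and 68.0 TPM in the IP, against 39.3, 45.2 and 56.5 TPM in the input (0.28 ± 0.06). Pcdh15, a gene of the hair cell tip link, had 12.2, 16.1 and 18.7 TPM in the IP, against 7.34, 11.2 and 19.0 TPM in the input (0.41 ± 0.09). Neither passed under scaling by the median of ratios, at 0.01 and 0.15 (adjusted p = 0.924 and 0.0892, limma), and Pcdh10 did not pass without day 18 either (0.14, adjusted p = 0.106). Pcdh1 (-0.06 ± 0.06), Pcdh8 (0.06 ± 0.07), Pcdh18 (-0.11 ± 0.14) and the endothelial gene Pcdh12 (-0.08 ± 0.14) did not pass. Under that scaling Pcdh1 and Pcdh8 were lower in the IP, at -0.34 and -0.22 (adjusted p = 1.17e-05 and 0.00957, limma).

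Of 18 genes that act on the choice of protocadherin promoters, among them the insulator protein gene Ctcf, cohesin and DNA methylation genes, 17 were higher in the IP and 0 lower (median 0.66). Dnmt1, the maintenance DNA methyltransferase, was higher by 1.36 ± 0.07, the cohesin loader Nipbl by 1.77 ± 0.10, the histone methyltransferase Setdb1 by 1.22 ± 0.07 and the repressor Smchd1 by 1.07 ± 0.07. Of 28 genes for partners of protocadherin proteins, 10 were higher and 12 lower (median -0.11). The WAVE complex genes Cyfip2 (-0.78 ± 0.06) and Wasf1 (-0.73 ± 0.07) were lower, as were Abi1, Nckap1 and Brk1 of that complex, while Cyfip1 was higher (0.65 ± 0.07) and Abi2 did not pass (the last 5 named after their values were seen). Ctnnb1 (0.89 ± 0.09), the gene of beta-catenin, and Axin1 (0.70 ± 0.07) were higher. Of 33 tested other cadherin genes, 15 were higher and 11 lower (median 0.14). The large atypical cadherins led, with Fat4 at 4.07 ± 0.10, its partner Dchs1 at 2.66 ± 0.10, Celsr1 at 2.28 ± 0.10 and the classical cadherin Cdh4 at 2.22 ± 0.10. All these counts stand beside the 41.4% higher and 28.5% lower of all genes. Counts of these lists and of the marker lists under scaling by the median of ratios were not determined. That scaling moved the median of all genes from 0.12 to -0.12.

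Day by day, the number of members that were higher in the IP was 17 of 70 at day 11, 28 at day 18 and 38 at day 27, and 9, 6 and 2 were lower. Over all genes the shares higher were 29.2%, 33% and 34.6%, and those lower were 12.1%, 31% and 14.3%. Pcdhgc4 was higher at each day, by 1.36, 1.89 and 1.74, and so was Pcdhgc3, by 1.06, 1.56 and 1.14. At day 11, 7 of the 12 non-clustered genes were lower, among them Pcdh8 at -0.52 ± 0.11, Pcdh1 at -0.58 ± 0.11 and Pcdh20 at -0.74 ± 0.13. At day 27, 2 of the 12 were lower, Pcdh11x and Pcdh17, and Pcdh8 and Pcdh1 were higher than in the input, at 0.48 ± 0.11 and 0.30 ± 0.11. Pcdhac2 and Pcdhgc5 were lower at day 11 (-0.70 ± 0.12 and -0.79 ± 0.15) and did not pass at day 27 (-0.03 and 0.14). The day 11 count rests on single libraries. It was 29 without the running IP library a of that day, 10 without the running IP library b, 11 without the sedentary IP library b and 26 without both letter a IP libraries, where days 18 and 27 counted 28 and 40. Whether the count differs between days was not tested. Under scaling by the median of ratios the members counted 8 higher and 12 lower at day 11, 23 and 14 at day 18, and 17 and 8 at day 27. Pcdh8 and Pcdh1 then did not pass at day 27, at 0.15 and -0.03, so the sign of Pcdh1 turned, and Pcdhac2 was lower at day 27 as well, at -0.34 (adjusted p = 0.0231, limma).

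In the IP, 25 of the 69 tested members rose between day 11 and day 27 and 0 fell, against 11.4% and 3.88% of all 17282 tested genes, and 44 members had an unadjusted p under 0.05. The share of all genes under that unadjusted p was not determined, here or below, so such counts have no background beside them. The median difference was 0.46 for the members and 0.15 for all genes, and scaling by the median of ratios left 19 higher and 1 lower (Pcdh10). The 25 were 6 of 12 non-clustered, 6 of 14 Pcdha, 3 of 21 Pcdhb and 10 of 22 Pcdhg genes. For 30 of the 69 members all 4 IP libraries of day 27 lay above all 4 of day 11, and for 0 below, which held for 13.2% and 4.8% of all genes. The day 11 libraries with the letter a weigh on this count. Without both of them 6 members were higher, Pcdh8, Pcdh1, Pcdh20, Pcdh19, Pcdhgc5 and Pcdhb12. Leaving out only the sedentary IP library a of day 11 left 9, only the running one left 13, and leaving out the running IP library b of day 11 gave 42. Leaving out the sedentary IP libraries f and e of day 27 gave 10 and 16.

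Markers of several cell types moved with the day as well. Between day 11 and day 27 in the IP, 11.4% of all tested genes rose and 3.88% fell. Of 7 markers of mature granule neurons 5 rose between day 11 and day 27 in the IP, and their summed level went from 1111 to 1189 TPM at day 11 to 1337 to 1757 TPM at day 27. Of 7 markers of intermediate progenitors and neuroblasts 4 fell, and their sum was 679 to 1102 TPM at day 11 and 499.6 to 717 TPM at day 27. Of 10 neural stem cell markers 3 fell. Of 7 microglia markers 2 fell, and their sum was 92.5 to 133 TPM at day 11 and 56.9 to 89.8 TPM at day 27. Among the 8 markers of pyramidal neurons of the CA fields and of mossy cells, 3 fell, and the sum was 601 to 1012 TPM at day 11 and 435 to 760.0 TPM at day 27. Calb2 belongs both to this list and to the immature neuron markers, so those lists are not separate. The sum of the immature neuron markers in the IP was 2771 to 3882 TPM at day 11 and 2180 to 3264 TPM at day 27. That of the astrocyte markers was 1932 to 3527 TPM and 1870 to 2898 TPM, and both sums overlapped between the days. Calls in the other direction are not given here for any of these lists. The part of these shifts in the protocadherin differences was not tested.

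The promoters of 3 genes outside the clusters that rose with the day, and did so also without the letter a libraries, are shown so that their sequences can be set side by side. Pcdh1 met the same rule, and its promoter is not used here. Each is the stretch of 250 bases before the annotated start, from RefSeq on GRCm38.p6, on the minus strand and written 5′ to 3′. Pcdh8 lies at chr14:79771313-79771562, Pcdh20 at chr14:88471397-88471646 and Pcdh19 at chrX:133688994-133689243. Capitals mark matches on either strand to 4 motifs searched, the TATA box TATAAA, the GC box GGGCGG, the E-box CANNTG and the cyclic AMP response core TGACG.
Pcdh8: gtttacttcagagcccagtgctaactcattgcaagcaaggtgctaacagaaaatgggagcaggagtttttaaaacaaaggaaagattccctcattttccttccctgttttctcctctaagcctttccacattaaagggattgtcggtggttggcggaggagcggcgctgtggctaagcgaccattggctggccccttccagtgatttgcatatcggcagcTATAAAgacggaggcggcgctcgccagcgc
Pcdh20: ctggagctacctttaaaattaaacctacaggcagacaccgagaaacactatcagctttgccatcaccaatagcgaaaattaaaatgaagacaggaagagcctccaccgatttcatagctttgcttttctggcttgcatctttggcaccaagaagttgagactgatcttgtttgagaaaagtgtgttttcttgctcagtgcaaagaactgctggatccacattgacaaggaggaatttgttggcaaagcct
Pcdh19: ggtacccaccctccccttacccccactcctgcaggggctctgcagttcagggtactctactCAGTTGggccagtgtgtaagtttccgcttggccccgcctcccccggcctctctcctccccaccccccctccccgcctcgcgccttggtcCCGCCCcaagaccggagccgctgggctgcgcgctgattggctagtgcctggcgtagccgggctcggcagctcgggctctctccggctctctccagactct

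Pcdh8 held 1 TATAAA, which begins 30 bases before the start. Of 32851 promoter stretches of the same length in the table, 12.4% held TATAAA. Pcdh19 held 1 E-box, 189 bases before the start, and 1 GC box on the other strand, 100 bases before it, motifs that 66.2% and 32.7% of all stretches held. Pcdh20 held none of the 4 motifs, and none of the 3 genes held TGACG, which 17.8% of all stretches held. A match is a description of letters and not a binding site.

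Pcdh8, an activity-regulated gene that acts at synapses, changed most. In the IP it stood at 40.0, 47.0, 38.8 and 42.3 TPM in the 4 libraries of day 11 (running a, sedentary a, running b and sedentary b, an order kept for every day), at 80.04, 63.0, 73.3 and 62.7 TPM at day 18 and at 117, 86.7, 98.6 and 67.1 TPM at day 27. Every library of days 18 and 27 lay above every library of day 11. In the input it stayed between 50.0 and 69.1 TPM. The log2 difference between day 27 and day 11 in the IP was 1.09 ± 0.11 (adjusted p = 7.48e-05, limma), and it was 1.14 without both letter a libraries.

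Pcdh1, a gene of epithelial and neuronal adhesion, followed the same order of days. It stood at 61.3, 88.2, 77.4 and 91.8 TPM at day 11, at 121, 119.8, 117 and 113 TPM at day 18 and at 141, 132, 152 and 125 TPM at day 27. The days did not overlap with each other in the IP, while the input held 101 to 146 TPM throughout. The difference between day 27 and day 11 was 0.79 ± 0.10 (adjusted p = 0.000283, limma).

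Pcdh20 stood at 79.3, 96.8, 97.1 and 90.4 TPM at day 11 and at 172, 126, 165 and 113 TPM at day 27 (0.64 ± 0.11). Pcdh19 stood at 19.7, 24.1, 22.5 and 28.3 TPM at day 11 and at 38.1, 38.8, 41.9 and 37.5 TPM at day 27 (0.71 ± 0.12). Neither gene overlapped between the 2 days. Pcdh17 (0.45 ± 0.12) and Pcdh9 (0.49 ± 0.14) rose too, but without both letter a libraries they did not pass (adjusted p = 0.206 and 0.303, limma), and under scaling by the median of ratios their adjusted p was 0.0651 and 0.0718. Pcdh10 had a negative difference that did not pass (-0.26 ± 0.10, adjusted p = 0.0939, limma) and that passed under that scaling (-0.43, adjusted p = 0.0105). Pcdh7, Pcdh11x, Pcdh12, Pcdh15 and Pcdh18 ranged from -0.14 to 0.25 and did not pass.

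**Figure D3:**
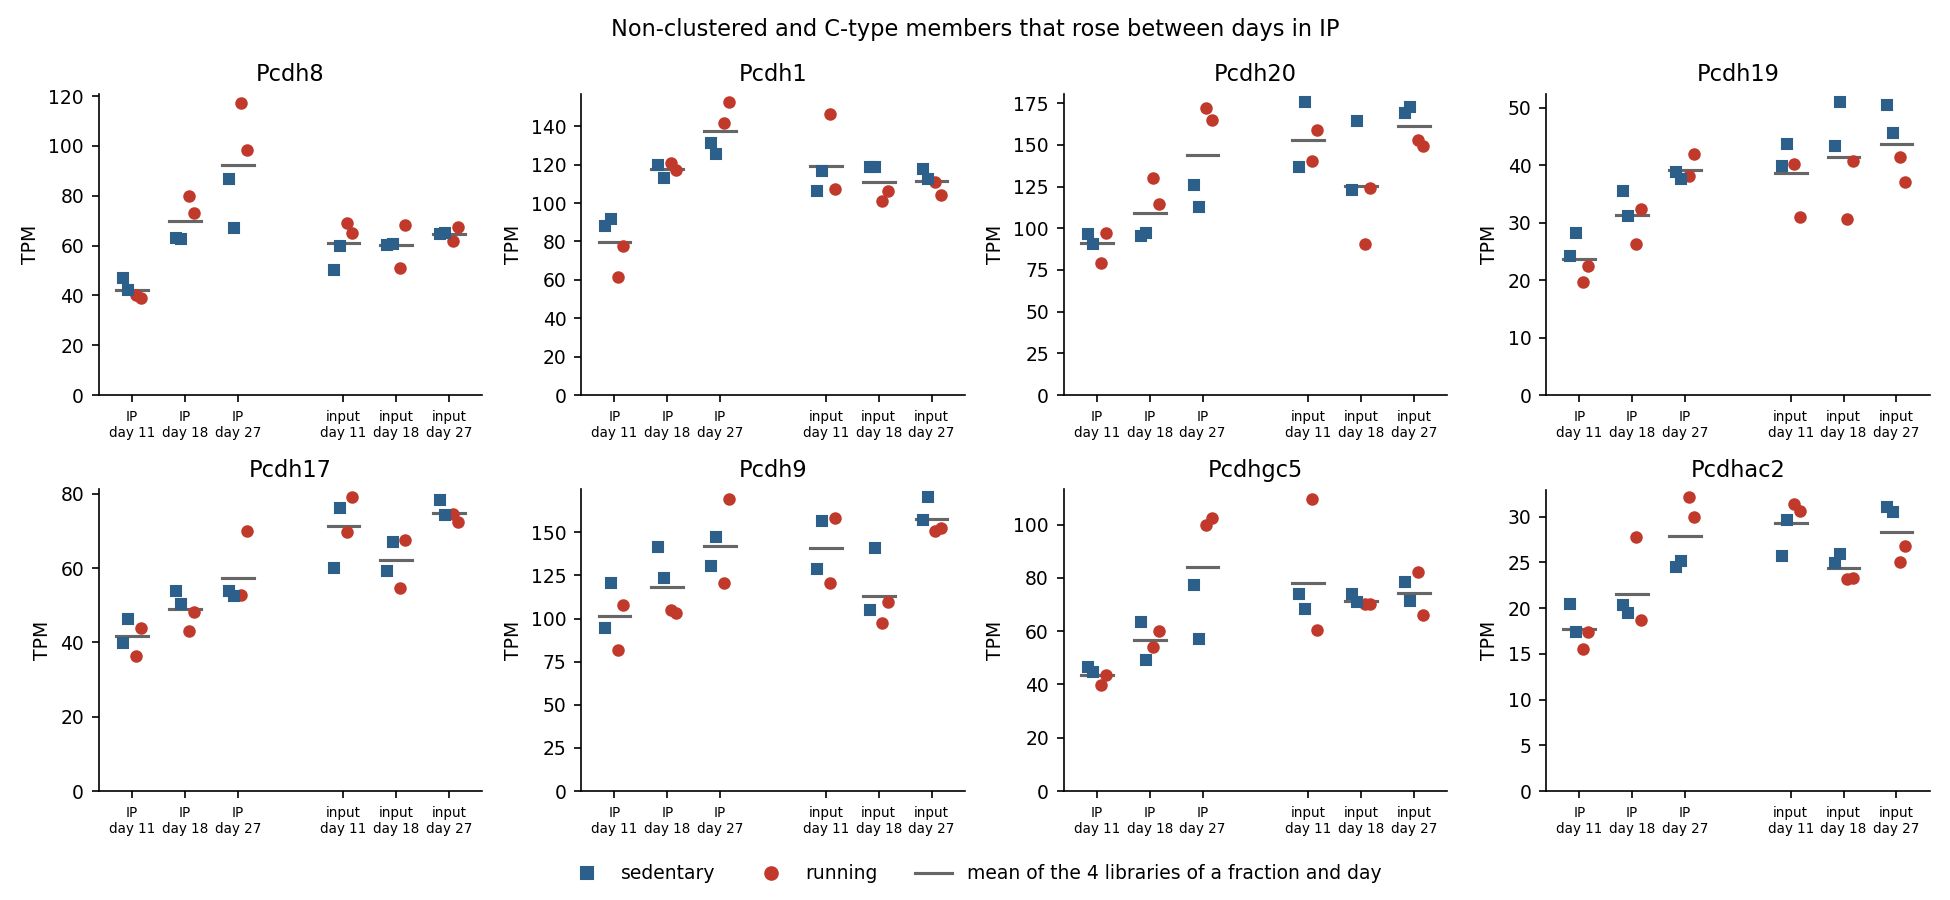
TPM of 6 non-clustered genes and of Pcdhgc5 and Pcdhac2 in each library (8 panels, vertical axes from 0), by fraction and day; squares are sedentary, circles running, and grey lines the mean of 4 libraries. Pcdh8 climbs in the IP from at most 47.0 TPM at day 11 to at least 67.1 TPM at day 27, while its input libraries lie between 50.0 and 69.1 TPM.

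Among the C-types, Pcdhgc5 rose from 39.99, 46.4, 43.5 and 44.7 TPM at day 11 to 99.8, 77.2, 102 and 57.1 TPM at day 27 in the IP (0.90 ± 0.12, adjusted p = 0.000321, limma). Pcdhac2 rose from 15.5, 20.5, 17.4 and 17.4 TPM to 32.1, 24.5, 29.9 and 25.1 TPM (0.63 ± 0.14). Pcdhac1 rose from 3.67, 3.62, 4.88 and 5.47 TPM to 7.25, 7.4, 10.1 and 7.76 TPM (0.76 ± 0.21). None of the 3 overlapped between the 2 days, but Pcdhac2 and Pcdhac1 did not pass without both letter a libraries (adjusted p = 0.0605 and 0.234, limma). Pcdhgc3 had a difference of -0.01 ± 0.14 and Pcdhgc4 of 0.37 ± 0.18, and neither passed. The share of Pcdhgc3 in the Pcdhg sum of the IP was 23.7 to 26.1% at day 11, 20.8 to 24.3% at day 18 and 16.5 to 19.7% at day 27, so days 11 and 27 did not overlap. The difference between the C-types was not tested.

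The variable genes of the clusters with the lowest p for day 27 against day 11 were Pcdhga12 (0.69 ± 0.15), Pcdhga5 (0.61 ± 0.14) and Pcdhgb8 (0.82 ± 0.19) in Pcdhg, Pcdha11 (0.66 ± 0.16), Pcdha7 (0.71 ± 0.17) and Pcdha4-g (0.60 ± 0.15) in Pcdha, and Pcdhb12 (0.78 ± 0.17), Pcdhb10 (0.67 ± 0.18) and Pcdhb11 (0.52 ± 0.17) in Pcdhb. Of these 9, Pcdhb12 was the 1 that still passed without both letter a libraries (0.79, adjusted p = 0.0431, limma). All 14 tested Pcdha genes and all 21 tested Pcdhb genes had positive differences, from 0.39 to 0.76 and from 0.11 to 0.78.

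At day 18 against day 11 in the IP 9 members were higher and 0 lower, against 4.56% and 1.1% of all genes, and without both letter a libraries none was (35 had an unadjusted p under 0.05 with them). The 9 were Pcdh8 (0.71 ± 0.11), Pcdh1 (0.57 ± 0.10), Pcdha11, Pcdha4-g, Pcdha7, Pcdha5, Pcdhga9 (0.81 ± 0.17), Pcdhga12 and Pcdhb12. At day 27 against day 18 limma called 0 members in either direction, against 0.0694% and 0.0521% of all genes, and 7 had an unadjusted p under 0.05. The lowest p belonged to Pcdhgc5 (0.53 ± 0.12, adjusted p = 0.0811, limma), Pcdh20 (0.38 ± 0.11) and Pcdh8 (0.38 ± 0.11).

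The change of the IP was then set against that of the tissue in 1 model. The difference between IP and input, taken with its sign as IP minus input, was larger at day 27 than at day 11 for 4 members. These were Pcdh8 (1.00 ± 0.16, adjusted p = 0.00467), Pcdh1 (0.88 ± 0.15, adjusted p = 0.00673), Pcdhgc5 (0.93 ± 0.21, adjusted p = 0.0274) and Pcdhac2 (0.67 ± 0.17, adjusted p = 0.0433, all limma). It went from -0.70 to -0.03 for Pcdhac2 and from -0.79 to 0.14 for Pcdhgc5. For Pcdh8 it went from -0.52 to 0.48 and for Pcdh1 from -0.58 to 0.30. Leaving out the running input library a of day 11 gave 0.72 in place of 0.93 for Pcdhgc5 and 0.77 in place of 0.88 for Pcdh1. These were their lowest values over the fits that left out 1 library. The signed difference was smaller for 0 members, and the shares over all genes were 1.46% and 0.323%. With the IP and input library of 1 activity and replicate letter paired as a block, none of the 4 passed (adjusted p = 0.0582 to 0.162, limma). Of the 4, Pcdh8 alone passed without both letter a IP libraries (1.05, adjusted p = 0.0318, limma), and Pcdhac2 did not pass under scaling by the median of ratios (adjusted p = 0.0588) or with no filter on low genes (adjusted p = 0.0506). In the 24 fits that each left out 1 library, Pcdhac2 lost its call in 17 and Pcdhgc5 in 9. Pcdh20 (0.56 ± 0.18) and Pcdh19 (0.54 ± 0.17) did not pass, at an adjusted p of 0.120 and 0.121 (limma).

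In the input the days differed in another way. At day 18 against day 11, 28 of 70 members were higher and 2 lower, against 37.8% and 11.4% of all 20462 tested genes. Of the 28, 19 were Pcdhb genes, 4 Pcdha genes, 4 non-clustered genes and 1 a Pcdhg gene. The Pcdhb sum was 153, 171, 145 and 161 TPM in the 4 libraries of day 11, 262, 231, 236 and 232 TPM at day 18, and 214, 205, 214 and 196 TPM at day 27, with no overlap between the days. Pcdhb1 rose most, from 0.570 to 2.41 TPM at day 11 to 4.52 to 11.5 TPM at day 18 (1.94 ± 0.30, adjusted p = 0.000511, limma). Pcdhb11 (0.77 ± 0.14), Pcdhb5 (0.85 ± 0.16) and Pcdhb3 (0.81 ± 0.17) followed. Pcdh15 rose by 0.95 ± 0.14, Pcdh12 by 1.34 ± 0.22, Pcdh18 by 0.84 ± 0.27 and Pcdh11x by 0.35 ± 0.13. Pcdhac1 (0.69 ± 0.19), Pcdha6 (0.58 ± 0.14), Pcdha10 (0.71 ± 0.18), Pcdha1 (0.74 ± 0.23) and Pcdhgb4 (0.49 ± 0.18) were the other called genes of the clusters. Pcdh10 (-0.36 ± 0.10) and Pcdhga3 (-0.31 ± 0.10) fell. A minimum mean of 5 TPM, which tests fewer genes, gave 17 higher, and leaving out the sedentary input library b of day 11 gave 17 higher and 0 lower. The number lower was 0 without the running input library d of day 18, 1 without the sedentary library c and 4 without the sedentary library d of that day. Under scaling by the median of ratios 21 members were higher and 10 lower, among the lower ones Pcdh17, Pcdh20, Pcdh9, Pcdhac2 and Pcdhgc3.

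The median olfactory receptor gene moved in the same libraries, from 0 to 1.76 TPM at day 11 to 3.50 to 7.56 TPM at day 18 and 1.02 to 2.52 TPM at day 27. Its part in these input differences was not tested. At day 27 against day 18 in the input 2 members were higher, Pcdhga3 (0.38 ± 0.10) and Pcdh9 (0.49 ± 0.14), and 5 lower, Pcdhb1 (-1.28 ± 0.30), Pcdh15 (-0.56 ± 0.14), Pcdh12 (-0.83 ± 0.22), Pcdh18 (-0.81 ± 0.27) and Pcdhb5 (-0.45 ± 0.16), against 10.4% and 26.7% of all genes. At day 27 against day 11 limma called 0 members and 0% of all genes in either direction. There, 16 members had an unadjusted p under 0.05, led by Pcdhb9 (0.45 ± 0.11), Pcdhb12 (0.57 ± 0.14) and Pcdhb11 (0.45 ± 0.14), at an adjusted p of 0.106 to 0.171 (limma).

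**Figure D4:**
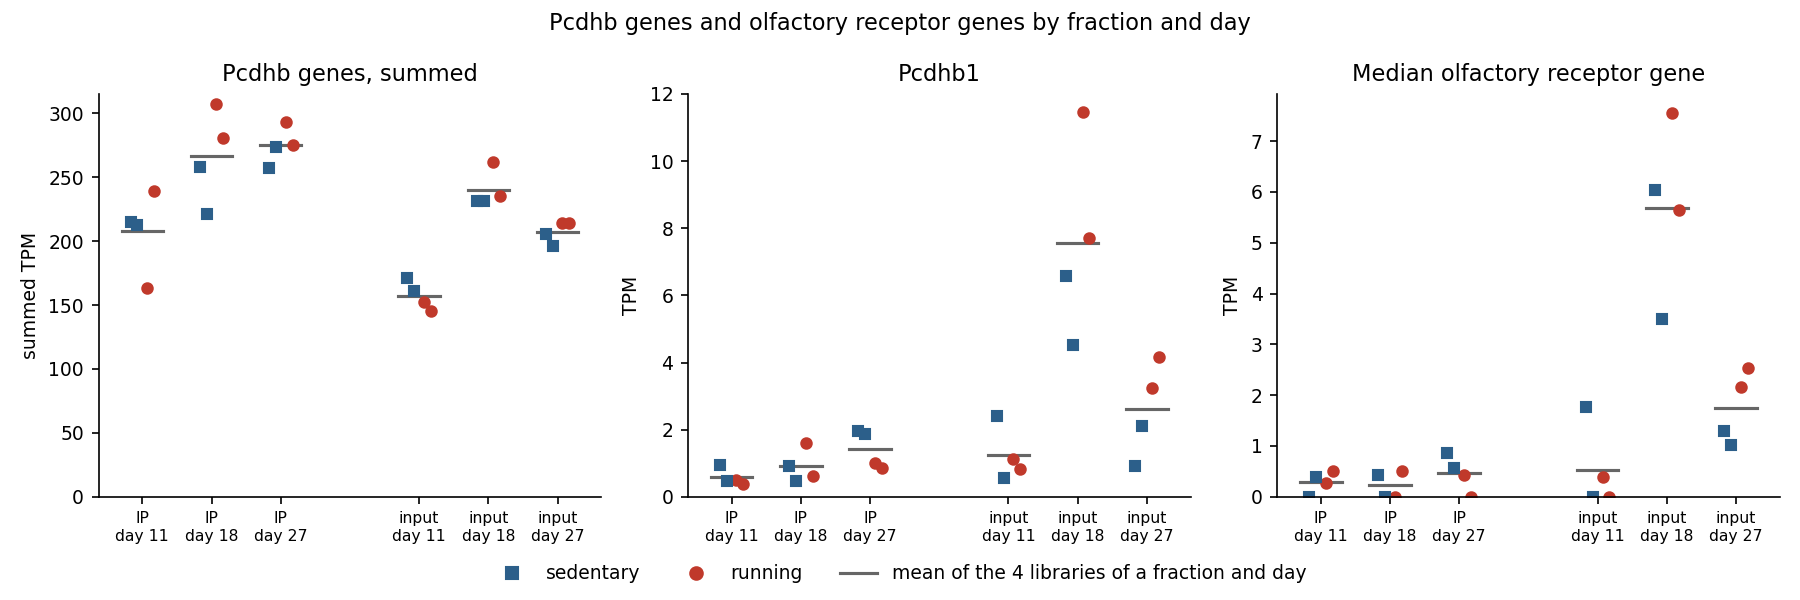
Summed TPM of the 22 Pcdhb genes, TPM of Pcdhb1 and TPM of the median of 1122 olfactory receptor genes in each library (3 panels, vertical axes from 0), by fraction and day; squares are sedentary, circles running, and grey lines the mean of 4 libraries. In the input all 3 measures are highest at day 18, where the olfactory receptor median is 3.50 to 7.56 TPM.

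Running was the treatment that the groups were set up to compare. In the IP, as the mean of the 3 days, limma called 0 of 69 members in either direction, against 0% higher and 0.00579% lower of all genes, and 6 members had an unadjusted p under 0.05. The lowest p belonged to Pcdh10 (-0.25 ± 0.08, adjusted p = 0.224), Pcdh20 (0.25 ± 0.09, adjusted p = 0.243) and Pcdhb3 (0.40 ± 0.15, adjusted p = 0.264, all limma). Pcdh10 stood at 52.5, 56.4, 53.1, 59.1, 41.9 and 49.3 TPM in the 6 running IP libraries, in order of day, and at 62.8, 66.03, 67.5, 68.0, 53.9 and 53.1 TPM in the 6 sedentary ones. Within each day both running libraries lay below both sedentary ones. Pcdh10 had the lowest p of the members, and the share of all genes with such a split was not determined. The split therefore adds no support. With the replicate letter as a block, running in the IP still called 0 members, beside 125 higher and 315 lower over all genes.

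Pcdh20 stood at 130, 114, 172 and 165 TPM in the running IP libraries of days 18 and 27 and at 95.3, 97.3, 126 and 113 TPM in the sedentary ones, without overlap within a day. At day 11 the values were 79.3 and 97.1 TPM with running and 96.8 and 90.4 TPM without, and they overlapped. For Pcdh20 too, the share of all genes with such a split was not determined. An F test of whether the running effect differed between the 3 days in the IP called 0 members, against 0.00579% of all genes, and 5 members had an unadjusted p under 0.05. The lowest p belonged to Pcdhgc5, whose running effects were -0.12, 0.03 and 0.60 at days 11, 18 and 27, and to Pcdh8, with -0.17, 0.28 and 0.49, followed by Pcdh12 with 0.94, 0.31 and -0.79 (adjusted p = 0.921 for the 3, limma). At day 27 Pcdhgc5 stood at 99.8 and 102 TPM with running and at 77.2 and 57.1 TPM without. It was the member of lowest p in that F test, which called none, so these values are no separate evidence.

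In the input, limma called 0 of 70 members for running and 0% of all genes in either direction, and 1 member had an unadjusted p under 0.05, Pcdh19 (-0.31 ± 0.11, adjusted p = 0.953). Pcdha3 (0.33 ± 0.16) and Pcdhb1 (0.47 ± 0.24) came next. The running effect in the IP minus that in the input was called for 0 members and 0% of all genes in either direction, with 4 members at an unadjusted p under 0.05. Pcdh20 (0.46 ± 0.15), Pcdh10 (-0.31 ± 0.11) and Pcdhb13 (0.47 ± 0.19) had the lowest p, at an adjusted p of 0.803 (limma). The class medians of the running effect in the IP were 0.08 for Pcdha, 0.14 for Pcdhb, -0.05 for Pcdhg and -0.07 for the non-clustered genes, beside -0.07 for all genes.

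**Figure D5:**
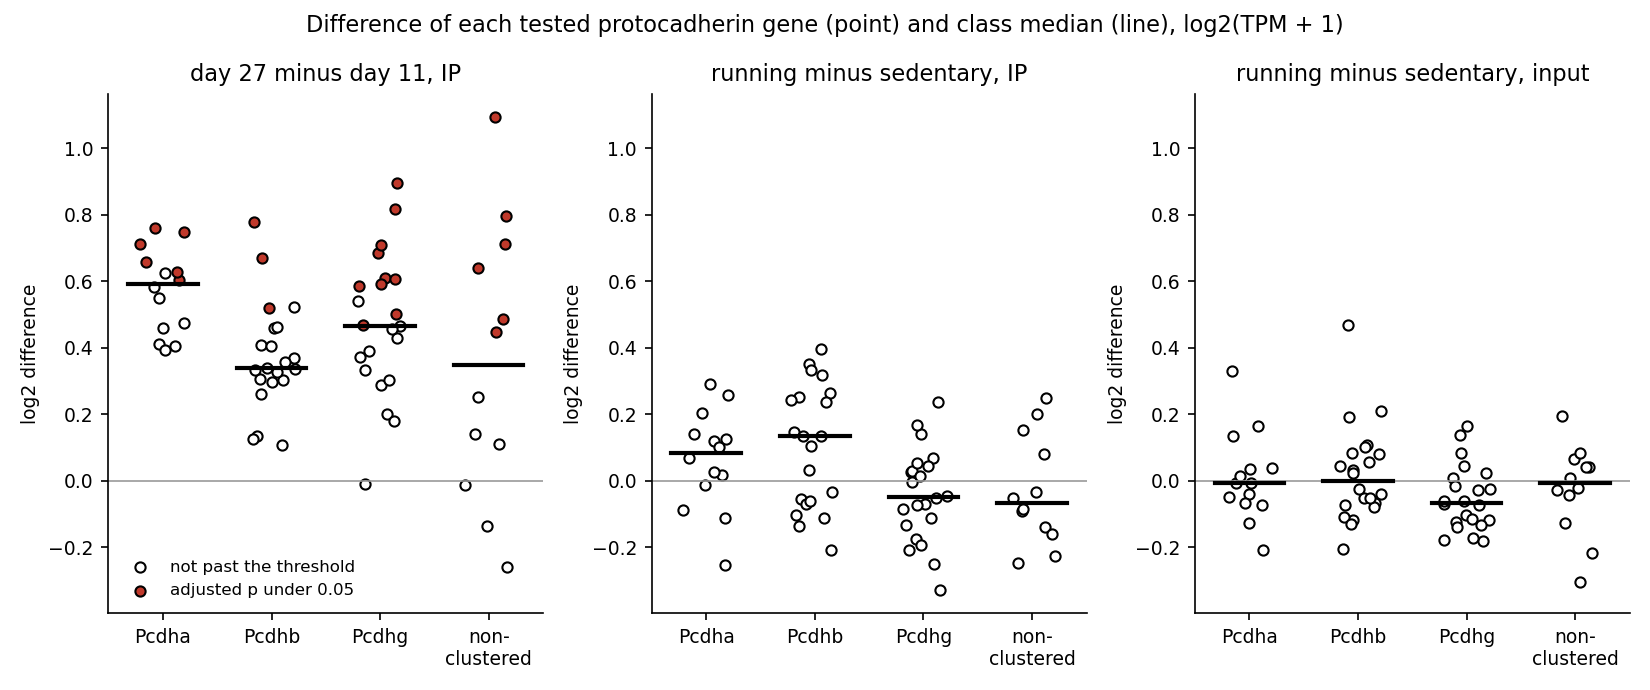
Log2 difference of each tested gene (points) and median of its class (lines) for day 27 against day 11 in the IP, running against sedentary in the IP and running against sedentary in the input (3 panels with 1 vertical scale); red points have an adjusted p under 0.05. Red points appear in the first panel, where they number 25 and all lie above 0.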

How the data were processed

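RNA of the tagged ribosomes and of dentate gyrus tissue was sequenced in 24 libraries, in 12 groups of 2, prepared, per the labels' protocols, by a SMARTer stranded kit for total RNA. The authors deposited 1 table of TPM values. RSEM and mm10 are named in the submitters' processing notes; the aligner, annotation, strand setting and versions were not given in the sources used here. TPM keeps no depth, so no counting interval is given.

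Values were analysed as log2(TPM + 1) of the deposited TPM with limma 3.58.1 in R 4.3.3 (cell means per group, empirical Bayes with trend and robust settings, 2-sided). Genes with a mean of at least 1 TPM over the libraries of a fit entered, p-values were adjusted by Benjamini-Hochberg over all of them, and 0.05 was the threshold. Comparisons of IP with input used all 24 libraries; those of days and of running used the 12 libraries of a fraction. Errors of log2 differences are standard errors. The fit was tried on simulated data with independent noise in each gene and library and with added changes. Shifts of whole libraries were not simulated, so that trial does not speak to them.

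Members and lists were chosen with earlier results of these data known. All non-clustered and C-type genes were named, with the 3 most abundant genes of each cluster and up to 4 per cluster of lowest p among those called in a comparison; where none was called, the 3 of lowest p. Alternatives were a pseudocount of 0.1, no filter, a minimum mean of 5 TPM, scaling by the median of ratios, the replicate letter as a block, leaving out a library or a day and, added after seeing the data, leaving out both letter a IP libraries of day 11.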

Additional observations from a re-analysis of the deposited data

Results flagged for a closer look

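The signed difference, IP minus input, was larger at day 27 than at day 11 by 0.88 for Pcdh1, 1.00 for Pcdh8, 0.67 for Pcdhac2 and 0.93 for Pcdhgc5 on the log2 scale. Each passed the threshold of the test of that difference in the main fit (limma). Without both letter a IP libraries of day 11 only Pcdh8 of these 4 passed, since the adjusted p was 0.0576 for Pcdh1, 0.102 for Pcdhac2 and 0.116 for Pcdhgc5 (limma). Pcdhac2 also missed the threshold with no filter on low genes and under scaling by the median of ratios. With the IP and input library of 1 activity and replicate letter paired as a block, none of the 4 genes passed, at an adjusted p of 0.0582 to 0.162 (limma).

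In 7 of 126 groups of 4 libraries (21 genes and sums, by fraction and day) 1 library stood far from the other 3, beside about 1 in 20 that chance gives. The running IP library a of day 11 had a Pcdhg sum of 379.2 TPM against 549.5 to 569.6 TPM, and 89.99 TPM of Pcdhgc3 against 139.6 to 143.3 TPM. The running input library c of day 18 had a Pcdhb sum of 261.7 TPM against 231.1 to 235.7 TPM. Pcdh10 stood at 46.78 TPM in the sedentary input library a of day 11 against 55.21 to 56.48 TPM. Pcdh17 stood at 70 TPM in the running IP library f of day 27 against 52.41 to 53.84 TPM. Pcdhac1 stood at 8.30 TPM in the running IP library d of day 18 against 4.82 to 5.28 TPM. Pcdhgc4 stood at 8.07 TPM in the sedentary input library f of day 27 against 6.92 to 7 TPM.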

How the results depend on the processing

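Over the alternatives that did not leave out a single library, 135 counts of called members stayed within 1.5 times their value and 17 did not, and 32 named values lost their call. Of the 54 members called in IP against input, 3 changed sign under scaling by the median of ratios (Pcdhb15, Pcdhb16 and Pcdhga3, named after their values were seen). Scaling by the median of ratios gave 22 members higher in IP against input, 8 at day 11, 17 at day 27, and 14 lower at day 18 and 8 at day 27; it gave 1 lower at day 27 against day 11 in the IP and 10 lower at day 18 against day 11 in the input. A minimum mean of 5 TPM gave 3 lower in the IP at day 18, 14 higher at day 18 against day 11 in the IP, 17 higher for the same days in the input and 1 lower at day 27 against day 18 in the input, where a pseudocount of 0.1 gave 2. Without both letter a IP libraries of day 11, 26 members were higher in the IP at day 11, 1 had a larger difference between IP and input at day 27 than at day 11, and 0 and 6 were higher in the IP at days 18 and 27 than at day 11. Leaving out 1 library in turn gave 10 to 29 higher in the IP at day 11, 1 to 3 lower at day 27, 2 to 5 for the larger difference at day 27, 1 to 35 and 9 to 42 higher in the IP at days 18 and 27 than at day 11, 17 to 26 higher and 0 to 4 lower in the input at day 18 than at day 11, and 0 to 3 higher and 0 to 5 lower there at day 27 than at day 18. The cause of these shifts was not tested. In fits of all libraries the block paired the IP and input library of 1 activity and letter. With it, 0 members had a larger signed difference between IP and input at day 27 than at day 11 in place of 4 (adjusted p = 0.0582 for Pcdh8, 0.0724 for Pcdh1, 0.0857 for Pcdhgc5 and 0.162 for Pcdhac2, limma). In IP against input 41 were higher and 10 lower with that block. Running within a fraction, with the replicate letter as its block, called 0 members as before. Over all genes, running in the IP called 125 higher and 315 lower with the letter as a block, in place of 0 and 1 without it. Deviations of running and sedentary libraries with 1 letter correlated across genes at 0.05 to 0.27, and those of IP and input with 1 title at -0.28 to -0.01. These values do not settle whether libraries of 1 letter share an effect. The labels state no block, so the main fits took the letters as names. Days share no letter, so no block could be fitted between them. Depth is unknown, and 2 libraries a group limit what the tests of running can detect.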

Other observations

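The lists of related genes were also followed over days and running in the IP. Of 18 genes for the choice of protocadherin promoters, 3 were higher and 3 lower at day 27 than at day 11 (median -0.04, beside 0.15 for all genes). Of 28 partners 5 were higher and 0 lower (median 0.19), and of 31 other cadherins 6 were higher and 0 lower (median 0.23). Over all tested genes 11.4% were higher and 3.88% lower between these days. Running called 0 genes of the 3 lists in the IP (limma), and 3, 4 and 5 of them had an unadjusted p under 0.05.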
